A study of Homo sapiens with 6 samples.

Results

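The 10 genes described here, co-receptors, receptors, ligands and a cytosolic relay of semaphorin signalling, are NRP1, NRP2, PLXNA1, PLXNA3, PLXNB2, PLXND1, SEMA3A, SEMA3C, SEMA3F and DPYSL2, taken by symbol from a table of 15024 genes, and all 10 were found. They were picked with the difference between the sorted populations already known, so that difference is given for them as a description, with no test. The data are bulk RNA sequencing of MLL3-null cells (MLL3 is the product of KMT2C) derived from MDA-MB-231, a widely used line from a human breast tumour of the triple-negative type. The first group was sorted as CD44+CD104high (n = 3), labelled E/M, and the second as CD44+CD104-/low (n = 3), labelled M and called CD104low here. CD104 is the integrin beta-4 protein. Every sample of either group was MLL3-null and had received 10 µM forskolin, which raises cAMP and so activates protein kinase A, over 14 days. The labels do not say whether the MLL3-null cells were 1 clone, and wild-type cells were not analysed here.

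Semaphorins are secreted or membrane-bound guidance proteins, plexins are their transmembrane receptors, and neuropilins are co-receptors that present class 3 semaphorins, and also VEGF, to plexins or VEGF receptors. An occupied plexin switches off R-Ras and Rap GTPases through its own intracellular domain and loosens integrin attachment and the actin cytoskeleton, and DPYSL2 (CRMP2) is a tubulin-binding protein that relays SEMA3A signals to microtubules. The system is best known from axon guidance and vessel growth, and breast cancer cells also use it in migration.

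Between 49791498 and 60069719 reads per library fell on the listed genes, and values are scaled read numbers, that is reads divided by 1 size factor per library. The sort gene ITGB4 averaged 16463 ± 2616 over the CD104high libraries, against 1699 ± 503 over the CD104low libraries (SD). KMT2C still gave reads in each library, 3561 to 3952 in CD104high and 2095 to 2814 in CD104low, which does not show which exons were read. All 5 listed markers of mesenchymal-type lines (VIM, CD44, AXL, MSN and CAV1) read at least 19871 in every library. Of 5 epithelial markers, KRT8, KRT18 and KRT19 read at least 12585 in every library, EPCAM read 554 to 673 in CD104high and 695 to 813 in CD104low, and CDH1 was not in the table. The table lists only genes with reads in every library, so a missing gene may still have been read in some. Of 6 endothelial markers, which matter because endothelial cells carry neuropilins, 3 were in the table: PECAM1 and TEK stayed between 2.01 and 14.6 and KDR between 42.2 and 94.3. Of 5 leukocyte markers LAPTM5 (380.4 to 560.7 in CD104high, 175 to 225 in CD104low) and CD14 (278 to 375 in CD104high, 145 to 208 in CD104low) were in the table, and their part in the results was not tested.

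NRP1 (chromosome 10, 33177492 to 33336262, GRCh38, minus strand), the co-receptor for SEMA3A and VEGF-A, was higher in CD104high. It read 20012, 18234 and 21424 in the 3 CD104high libraries, against 8186, 8063 and 9332 in the 3 CD104low libraries. The lowest CD104high library thus stood well above the highest CD104low library. The log2 fold change of CD104high over CD104low was 1.22 (SE 0.08), or 2.33-fold. In bulk samples fewer cells of a type and less RNA per cell cannot be told apart.

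NRP2 (chromosome 2, 205681990 to 205798133, plus strand), the co-receptor through which SEMA3F acts, behaved less evenly. It read 1111, 872.8 and 1607 in CD104high, against 516.9, 552.0 and 1323 in CD104low. Replicate 3 was the highest library of each population, and replicate 3 of CD104low exceeded 2 of the CD104high libraries, so the groups overlapped. Compared by replicate number, CD104high was the higher each time, though the numbers were not taken as pairs. The log2 fold change was 0.68 (SE 0.35). It was 1.12 without replicate 3 of CD104low, 0.45 without replicate 3 of CD104high and 0.44 without replicate 1 of CD104low.

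Per kilobase of transcript, NRP1 made up most of the neuropilin signal. The level of NRP1 was 20.4, 23.7 and 15.1 times that of NRP2 in the CD104high libraries, and 17.9, 16.5 and 7.99 times in the CD104low libraries. NRP1 therefore supplied 95.0 ± 1.11% of summed neuropilin reads per kilobase in CD104high, against 92.6 ± 3.26% in CD104low (SD over 3 libraries each), ranges that overlap.

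**Figure D1:**
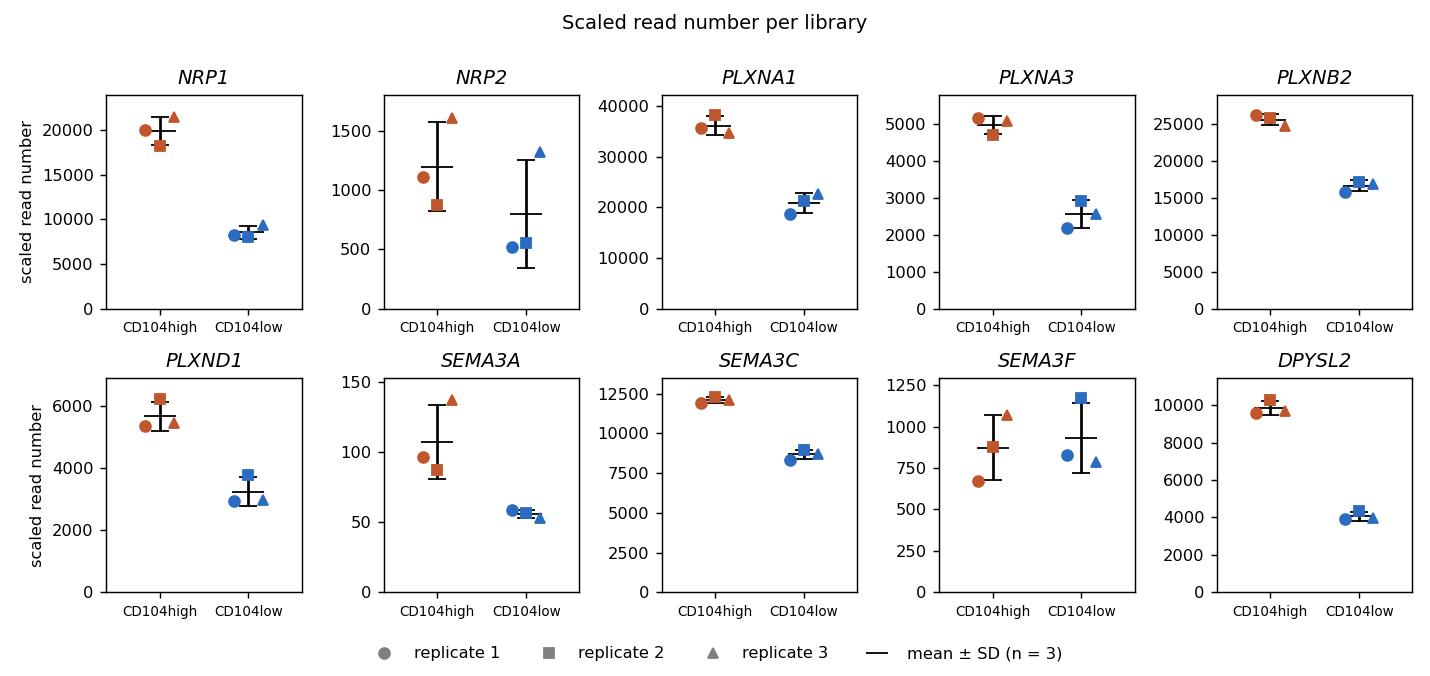
Scaled read number (y axis, from 0) of each of the 10 genes in the 3 CD104high libraries (left, orange) and the 3 CD104low libraries (right, blue); the symbol shape gives the replicate number and black bars the mean ± SD (n = 3). The populations are apart in 8 panels and overlap in NRP2 and SEMA3F, with replicate 3 of CD104low (1323 for NRP2) among the CD104high values.

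The 4 plexins are the signalling receptors. PLXNA1 (chromosome 3, 126988594 to 127037392, plus strand) and PLXNA3 (chromosome X, 154458281 to 154477779, plus strand) take class 3 semaphorins together with neuropilins. PLXNA1 read 35637, 38156 and 34636 in CD104high, against 18706, 21180 and 22606 in CD104low. PLXNA3 read 5144, 4686 and 5059 in CD104high, against 2167, 2916 and 2569 in CD104low. Neither gene overlapped between the populations, and the log2 fold changes were 0.80 (SE 0.08) for PLXNA1 and 0.97 (SE 0.11) for PLXNA3. LAGE3, which overlaps PLXNA3 on the opposite strand, read 1866, 2070 and 2427 in CD104high, against 2385, 1994 and 2370 in CD104low, with overlap.

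PLXNB2 (chromosome 22, 50274979 to 50307627, minus strand), a receptor of class 4 semaphorins, was the plexin with the smallest difference. It read 26215, 25751 and 24775 in CD104high, against 15766, 17208 and 16942 in CD104low, a log2 fold change of 0.62 (SE 0.06). PLXND1 (chromosome 3, 129555175 to 129606818, minus strand), the receptor of SEMA3E, read 5334, 6202 and 5458 in CD104high, against 2949, 3762 and 2969 in CD104low. Its log2 fold change was 0.82 (SE 0.11). For both genes each CD104high library was above each CD104low library.

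The plexins have GC-rich transcripts, with 57.4% GC in the longest coding transcript of PLXNA3, 61.6% in PLXNA1, 63.1% in PLXNB2 and 63.5% in PLXND1. When each library was corrected for a smooth dependence on transcript length and GC content, the 4 differences kept their sign and became smaller by more than 1.5-fold. The corrected log2 fold changes were 0.36 for PLXNA1, 0.53 for PLXNA3, 0.28 for PLXNB2 and 0.44 for PLXND1. After the correction NRP1 was at 1.14, a shift within 1 SD between replicates, and DPYSL2 at 1.13, a shift beyond 1 SD. SEMA3C, at 39.4% GC, went the other way and was 0.58 after the correction.

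**Figure D2:**
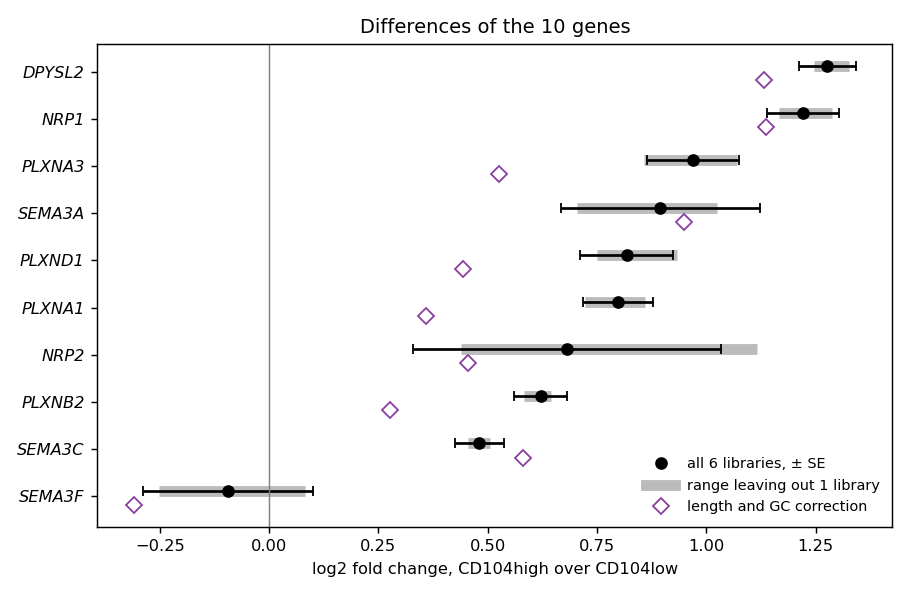
Log2 fold change of CD104high over CD104low (x axis) for each of the 10 genes: black points with the SE from all 6 libraries, grey bars the range when 1 library is left out, and open diamonds the value after the length and GC correction. The diamonds of the 4 plexins lie far to the left of their points (0.36 against 0.80 for PLXNA1), those of NRP1 and DPYSL2 less far, and SEMA3F straddles 0.

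Promoter sequence was not used in choosing the genes. RefSeq (GRCh38.p14) gave promoter windows for 7 of the 10 genes, with 10 transcription starts among them. In the 250 bases before the start, the GC box GGGCGG, searched on both strands with overlapping matches counted, was found at 8 of these 10 starts and at 1 or more starts of all 7 genes. It was found at 42.6% of all 35116 starts, at 29 of 47 starts of the other semaphorin, plexin and CRMP genes, and at 1 or more starts of 21 of those 24 genes. Upstream GC content was 84.4% at PLXNA1, 82.8% at PLXNA3, 88.8% at PLXND1 and 66.4% at PLXNB2, against a median of 58.0% over all starts. NRP2 lay above that median too, and 1 start each of SEMA3C (36.4%) and SEMA3F (52.8%) lay below it. These windows are shown because the genes they belong to were higher in CD104high (PLXNA1, PLXNA3, PLXNB2) or overlapped between the populations (SEMA3F) while all carry the same letters, GC boxes in capitals:
PLXNA1, chr3:126983008-126983077, plus strand: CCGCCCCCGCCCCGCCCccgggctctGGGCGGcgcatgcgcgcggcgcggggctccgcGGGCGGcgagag
PLXNA3, chrX:154458186-154458255, plus strand: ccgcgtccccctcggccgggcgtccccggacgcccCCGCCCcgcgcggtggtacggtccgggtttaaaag
PLXNB2, chr22:50301670-50301739, minus strand: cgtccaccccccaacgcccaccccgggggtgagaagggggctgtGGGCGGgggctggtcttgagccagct
SEMA3F, chr3:50154933-50155002, plus strand: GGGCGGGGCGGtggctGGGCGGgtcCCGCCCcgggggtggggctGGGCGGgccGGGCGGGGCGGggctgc

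The window of SEMA3F held 7 GC boxes and that of PLXNA1 held 5, against 1 each for PLXNA3 and PLXNB2. Among windows not shown, that of PLXND1, also higher in CD104high, held 6. Those of NRP2, SEMA3C and another start of SEMA3F held 2 each. The windows left out for PLXND1, SEMA3C and SEMA3F touch an annotated exon. Since every sample had been treated with forskolin, the cAMP response element TGACGTCA (its own reverse complement) was searched as well. It was at 0 of the 10 starts of these genes and at 1.6% of all starts. Its shorter core TGACG was at 1 of the 10, in PLXNB2, and at 21.2% of all starts. The E-box CACCTG, which SNAI and ZEB factors read, was at 1 of the 10, in SEMA3F, and at 17.5% of all starts.

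The 3 class 3 semaphorins, secreted ligands, differed from each other in level and in difference. SEMA3C (chromosome 7, 80742538 to 80922359, minus strand), which binds through either neuropilin, read 11942, 12278 and 12108 in CD104high, against 8352, 8960 and 8718 in CD104low. Its libraries lay closer together than those of any other of the 10 genes, with a coefficient of variation of 1.39% in CD104high and 3.53% in CD104low, and the populations did not overlap. The log2 fold change was 0.48 (SE 0.06), or 1.40-fold.

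SEMA3A (chromosome 7, 83955777 to 84492724, minus strand), the ligand that acts through NRP1, was the least abundant of the 10. It read 96.1, 87.4 and 136.9 in CD104high, against 58.3, 56.6 and 52.8 in CD104low. The groups were apart, with replicate 3 of CD104high highest. The log2 fold change was 0.90 (SE 0.23), 0.70 without replicate 3 of CD104high, and 0.58 with quantile normalization.

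SEMA3F (chromosome 3, 50155045 to 50189075, plus strand), the ligand that acts through NRP2, showed no separation. It read 673.7, 879.0 and 1068 in CD104high, against 831.7, 1172 and 789.5 in CD104low, with each population spanning most of the other. The log2 fold change was -0.09 (SE 0.19), and leaving out single libraries moved it between -0.25 and 0.08; with the length and GC correction it was -0.31. The antisense gene SEMA3F-AS1 overlaps its start, and the sources do not state whether reads were counted by strand. SEMA3F-AS1 read 29.4 to 67.7 in CD104high and 24.7 to 57.3 in CD104low, far below SEMA3F.

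DPYSL2 (chromosome 8, 26514022 to 26658178, plus strand), the cytosolic relay, had the largest log2 fold change of the 10. It read 9588, 10267 and 9670 in CD104high, against 3903, 4345 and 3942 in CD104low. Variation among replicates was small beside this gap. The log2 fold change was 1.28 (SE 0.07), or 2.42-fold. PNMA2, which overlaps DPYSL2 on the opposite strand, read 2254, 2191 and 3025 in CD104high, against 902.1, 1080 and 1190 in CD104low, and whether reads of either gene were counted for the other was not tested.

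Counted together, 8 of the 10 genes were above the threshold of the fit across all genes (limma adjusted p under 0.05) and higher in CD104high, and 8 did not overlap between the populations. Over all 14420 genes tested, 21.8% passed as higher (43.4% in either direction), 27.4% were apart and higher, and 26.9% were apart and lower, 54.3% in all. The 10 were chosen on this difference, so nothing is read from their count. Their median log2 fold change was 0.81, against 0.02 over all genes tested.

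Levels between genes were compared per kilobase of the longest coding transcript. PLXNB2 (4008 ± 115 scaled reads per kilobase in CD104high) and PLXNA1 (3987 ± 200) headed the order and overlapped each other; in CD104low they were at 2607 ± 120 and 2298 ± 218 (SD, n = 3 each). NRP1 followed in CD104high at 3382 ± 272, above SEMA3C at 2340 ± 32.4. In CD104low that order was turned round, with NRP1 at 1450 ± 119 below SEMA3C at 1677 ± 59.1, and the library ranges of the pair were apart in each population. Before division by length the pair overlapped in CD104low, at 8527 ± 700 for NRP1 and 8677 ± 306 for SEMA3C. Their order there thus depends on the transcript length used. The same holds for PLXNB2 and PLXNA1, as PLXNA1 was the higher before that division, without overlap in either population. The scaled read numbers were 36143 ± 1814 for PLXNA1 and 25580 ± 735 for PLXNB2 in CD104high. In CD104low they were 20831 ± 1974 and 16639 ± 767.

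DPYSL2 came next, at 2048 ± 77.1 in CD104high and 846 ± 50.9 in CD104low, and then PLXND1 at 798 ± 66.2 in CD104high and 455 ± 65.4 in CD104low. PLXNA3, SEMA3F and NRP2 formed a middle group between 120 and 456 in the means of either population. Within it the libraries of SEMA3F and NRP2 overlapped in CD104high, and those of SEMA3F and PLXNA3 in CD104low. SEMA3A was last, at 13.0 ± 3.21 in CD104high and 6.80 ± 0.35 in CD104low, the 8.7th and 6.0th percentile of all tested genes. PLXNB2 and PLXNA1 supplied 82.4 ± 0.49% of the summed reads per kilobase of all 9 plexins in the table in CD104high, and 83.1 ± 1.49% in CD104low. The sum over the 9 plexins was 9703 ± 305 in CD104high and 5900 ± 409 in CD104low. These sums were taken without the length and GC correction, which lowered the log2 fold changes of PLXNB2 and PLXNA1 to 0.28 and 0.36.

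The 7 class 3 semaphorins in the table summed to 4426 ± 248 reads per kilobase in CD104high, against 2765 ± 272 in CD104low (SD over 3 libraries each). SEMA3C made up 55.3, 53.6 and 50.1% of that sum in CD104high, against 62.5, 56.3 and 63.9% in CD104low. Its share was thus lower in every CD104high library, although its own level was higher.

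**Figure D3:**
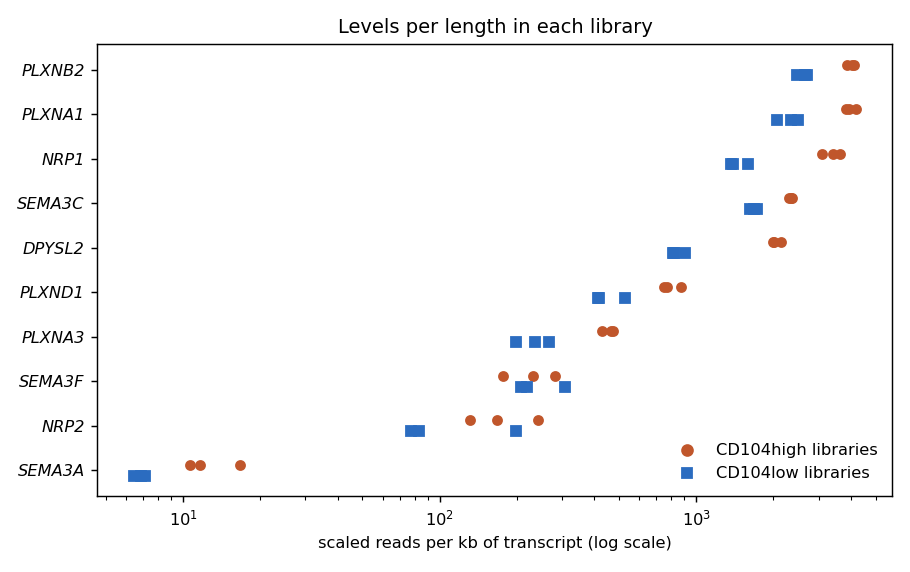
Scaled reads per kilobase of the longest coding transcript (x axis, log scale) for the 10 genes, ordered by their CD104high mean; circles are the CD104high libraries and squares the CD104low libraries. NRP1 stands above SEMA3C in CD104high (3382 against 2340 in the means) and below it in CD104low (1450 against 1677), and SEMA3A is the lowest of the 10 in every library.

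The remaining semaphorins, plexins and CRMP proteins were listed by family membership, with earlier results of these data known, and each gene was tested in the fit across all genes. The list was not tested against other genes. Of 26 such genes 21 were in the table and tested. Of these, 10 rose in CD104high and 1 fell, against 21.8% and 21.6% of all genes, with a median log2 fold change of 0.57. SEMA3B, a class 3 semaphorin, rose 2.28-fold, reading 4583, 4985 and 5808 in CD104high, against 1990, 2805 and 2014 in CD104low (log2 fold change 1.19, SE 0.14, limma adjusted p = 0.000532). CRMP1, a paralogue of DPYSL2 in the same cytosolic family, rose 2.01-fold, reading 1069, 970.8 and 983.5 in CD104high, against 510.9, 535.9 and 458.2 in CD104low (limma adjusted p = 0.000309). PLXNB3, the receptor of SEMA5A, rose 1.99-fold, to 1687 ± 101 in CD104high, against 848 ± 71.4 in CD104low (SD, n = 3 each; limma adjusted p = 0.000275). In these 3 genes no CD104high library overlapped a CD104low library.

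Smaller rises were seen in SEMA4G (log2 fold change 0.80), SEMA6B (0.69), SEMA6C (0.57), PLXNB1 (0.57), SEMA4F (0.39) and SEMA4B (0.35). PLXNB1, which overlapped between the populations, passed under 8 of 17 alternative settings, and lost its call without replicate 1 or 2 of CD104high and without replicate 1 or 3 of CD104low (adjusted p = 0.114 to 0.126). SEMA4G also lost its call without replicate 1 of CD104high (0.0552), and SEMA4B without replicate 3 of CD104low (0.0512). SEMA5A, a transmembrane semaphorin, had the largest value and the widest spread. It read 394.5, 36.2 and 859.8 in CD104high, against 16.1, 4.04 and 50.5 in CD104low, so the groups overlapped and replicate 2 was lowest in each. With limma the adjusted p was 0.0261 at a log2 fold change of 3.83 (SE 1.15). SEMA5A lost its call without replicate 1 of either population (adjusted p = 0.0885 and 0.0781), without replicate 3 of CD104high (0.0664), in limma without the trend (0.0762) and without replicate 2 of CD104low (0.0681). It passed under 12 of 17 alternative settings.

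PLXNA2 was the gene that fell, reading 510.8, 632.8 and 679.3 in CD104high, against 749.2, 783.6 and 999.5 in CD104low (limma adjusted p = 0.0305 at a log2 fold change of -0.47, SE 0.15). PLXNA2 thus differed in sign from PLXNA1 and PLXNA3, and after the length and GC correction it was at -0.88. Its call ended without replicate 1 (adjusted p = 0.112) or 2 (0.0519) of CD104high, without replicate 3 of CD104low (0.101) and in limma without the trend (0.0619). SEMA3E (-0.69), SEMA7A (-0.46), SEMA4C (-0.07), SEMA4D (0.09), PLXNC1 (0.11), SEMA6A (0.21), SEMA3D (0.40), SEMA3G (0.93), SEMA4A (1.01) and PLXNA4 (1.15) did not pass. SEMA4C at -0.27 passed as a fall with the correction (adjusted p = 0.0148), and SEMA3E with quantile normalization (-0.97, 0.0343) and without replicate 1 of CD104high (0.0325). SEMA3G passed as a rise in DESeq2 (0.95, adjusted p = 0.0116) and when replicate 3 of CD104high (1.31, 0.00686) or replicate 2 from CD104low (1.21, 0.0238) was left out. SEMA7A passed as a fall without replicate 3 of CD104high (-0.72, 0.0246).

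SEMA3B, CRMP1, PLXNB3 and SEMA6B passed under each of the 17 alternative settings. The 10 rises became 5 without replicate 1 of CD104low, where SEMA4B, SEMA4F, SEMA4G, SEMA5A and PLXNB1 dropped out, and 6 with the length and GC correction, where SEMA4B (0.13), SEMA4F (0.15), SEMA6C (0.28) and PLXNB1 (0.19) did.

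**Figure D4:**
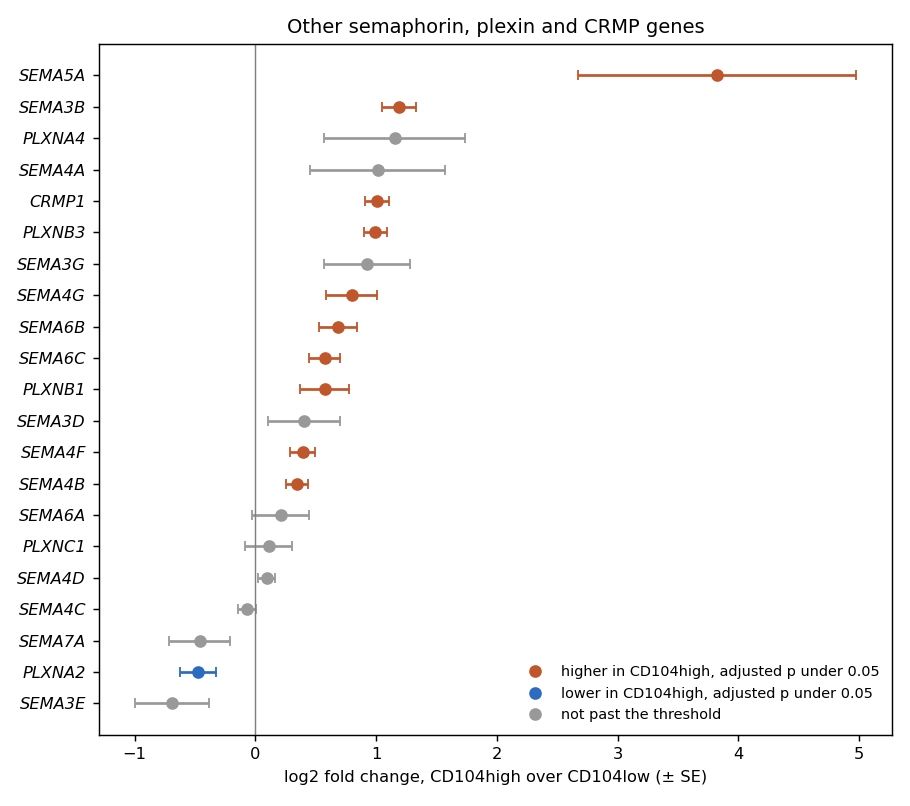
Log2 fold change of CD104high over CD104low with its SE (x axis) for the 21 tested semaphorin, plexin and CRMP genes outside the 10; orange passed as higher, blue as lower and grey did not pass (limma adjusted p under 0.05). Among them 10 are orange and 1, PLXNA2 at -0.47, is blue, and SEMA5A at 3.83 has the widest bar.

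By their GENCODE positions SEMA3B and SEMA3F lie 78483 bases apart on chromosome 3, in the same orientation, and they differed. The level of SEMA3B per kilobase was 8.74, 7.29 and 6.99 times that of SEMA3F in CD104high, against 3.08, 3.08 and 3.28 times in CD104low. The ratio was thus nearly constant among CD104low libraries and higher in every CD104high library. SEMA3B also carried a cAMP response element, TGACGTCA, before 1 of its 5 RefSeq starts, and so did SEMA4C, which did not pass. Among the 47 RefSeq starts found for 24 of the 26 family genes, these were the 2 with the element, shown in capitals:
SEMA3B, chr3:50260156-50260225, plus strand: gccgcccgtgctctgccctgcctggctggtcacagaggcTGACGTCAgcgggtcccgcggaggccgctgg
SEMA4C, chr2:96870086-96870155, minus strand: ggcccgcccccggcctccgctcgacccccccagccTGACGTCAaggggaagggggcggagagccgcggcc

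Which start was used in these cells cannot be read from values per gene, and no untreated cells stand beside the forskolin-treated ones.

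Co-receptors of plexins and neuropilins, VEGF ligands and the proteases that process semaphorins formed a second list of 20 genes, of which 15 were tested. Of these, 5 rose and 0 fell in limma, with 1 fall at an unadjusted p under 0.05, 0 falls in edgeR and 1 in DESeq2. Over all genes 21.8% rose and 21.6% fell. The median log2 fold change was 0.26. L1CAM, an adhesion molecule that joins NRP1 in the SEMA3A receptor, rose 5.99-fold, reading 4005, 1667 and 6575 in CD104high, against 537.0, 390.3 and 968.0 in CD104low (limma adjusted p = 0.00313). MST1R, a receptor tyrosine kinase that pairs with plexin-B proteins, rose 1.87-fold, to 2216 ± 125 in CD104high, against 1190 ± 172 in CD104low (limma adjusted p = 0.000585). VEGFB (0.50) and the integrin subunit gene ITGA1 (0.78) rose too. ERBB2 rose by 0.33, a value that the length and GC correction lowered to 0.07 (adjusted p = 0.32).

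VEGFA lay in the other direction from VEGFB, reading 1886, 2449 and 2728 in CD104high, against 2568, 3240 and 3243 in CD104low, with overlap. Its log2 fold change of -0.37 (SE 0.14) did not pass (limma adjusted p = 0.0694), and it did with the length and GC correction (0.0355), in DESeq2 (0.0336) and without replicate 3 of CD104high (0.0242). MET (0.06), VEGFC (0.18), PGF (0.01), KDR (0.26), NRCAM (0.44), PTK7 (0.12), PCSK6 (0.60), ITGB1 (0.13) and FURIN (0.07), whose product cleaves class 3 semaphorins, did not pass. ITGB1 passed with the correction (0.29, adjusted p = 0.0071), and FURIN then passed as a fall (-0.17, 0.0376).

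Among 33 cytosolic genes of plexin signalling, 9 rose and 5 fell, so 14 of 33 passed, close to the 43.4% of all genes. The median log2 fold change was 0.11. The rises with the smallest p were SSH1, a cofilin phosphatase (0.50, limma adjusted p = 0.00123), MICALL2 (0.43, 0.00184), ARHGEF12, a RhoA exchange factor that binds plexin-B proteins (0.53, 0.00323), and MICAL1, an actin oxidase that binds plexin-A proteins (0.57, 0.00391). The length and GC correction left SSH1 at 0.14 (adjusted p = 0.197). MICAL2 (0.06, 0.541), MICAL3 (-0.04, 0.735) and ARHGEF11 (-0.05, 0.547), which rose without it, also lost their calls. With the correction 7 genes of this list rose and 7 fell.

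The falls with the smallest p were RAP1A (-0.39, limma adjusted p = 0.00237), CDK5R1 (-0.58, 0.00339), RAP1B (-0.34, 0.0034) and RRAS2 (-0.53, 0.0149). RAP1A, RAP1B and RRAS2 encode small GTPases of the families that plexins inactivate, and CDK5R1 activates the kinase CDK5, which phosphorylates the DPYSL2 protein. RRAS, the gene of R-Ras itself, went the other way and rose (0.31, limma adjusted p = 0.0348), with no overlap between the populations. It passed under 12 of 17 alternative settings and was at 0.37 with the length and GC correction. RAP1A read 4375, 4572 and 4229 in CD104high, against 5946, 5375 and 5921 in CD104low, with no overlap. With the correction RRAS2 came to -0.10 (adjusted p = 0.492). It also did not pass in limma without the trend (0.052), or without replicate 1 of CD104high (0.0602) or of CD104low (0.0681). RHOA (0.06), RAC1 (-0.11), CFL1 (-0.08) and CDK5 (0.25) did not pass, although RHOA did with the correction (0.17, 0.0279) and with quantile normalization (0.19, 0.029). With the correction RHOD also passed as a rise (0.28, 0.0157), and MICALL1 (-0.38, 0.0054), FARP2 (-0.19, 0.0385) and ROCK1 (-0.15, 0.0386) as falls. Without replicate 1 of CD104low 5 genes of this list rose and 3 fell.

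Genes whose profile over the 6 libraries was most like a member were found by the root mean square difference between log2 profiles centred on each gene's mean, among 12410 genes. The nearest to NRP1 were PROM2 (0.04 log2 units), UBE2L6 (0.05) and LOC100507516 (0.06). The nearest to DPYSL2 were PRICKLE2 (0.05), BTN3A1 (0.05) and LOXL4 (0.06). NRP2 had more distant neighbours, GLIS3 (0.09), F8 (0.17) and CCBE1 (0.19). Because the ranking uses the difference between the populations, near genes have similar log2 fold changes by construction, 1.23 for PROM2 beside 1.22 for NRP1, while GLIS3 (0.77) and CCBE1 (0.44) stood further from NRP2 (0.68).

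The 3 replicate numbers ranked alike in both populations for 4 of the 10 genes (NRP1, DPYSL2, PLXND1 and SEMA3C), against 27.8% of all genes tested, for 9 of the 21 other family genes and for 9 of the 15 co-receptor and VEGF genes.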

How the data were processed

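The authors deposited 1 table with, per the file headers, a scaled read signal per gene and library, the log2 fold change of CD104high over CD104low with its SE in log2 units, and p-values with adjusted p-values. Per the submitters' processing notes, Salmon 1.3.0, DESeq2 and FastQC were used with GRCh38 (hg38). No source used here gives the annotation release, filters or strand setting. Every gene in the table had reads in each library, the lowest value being 0.883. Genes without reads in any single library are thus missing, and shares over all genes cover the listed genes only. Every deposited signal value was a whole multiple of 1 step per library (within 0.01 for 100% of values), so read counts were recovered and used in the count tests only. All other values were computed here from the signal.

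The 14420 genes that reached 10 in 3 or more libraries were tested on log2(value + 1), a scale that understates the change of low genes. The test was limma 3.58.1 (R 4.3.3) with its trend option, with no covariate beside the population, and Benjamini-Hochberg adjustment covered all genes tested. The labels call the samples biological replicates and name no culture or batch, so the p-values reflect only how much these samples differ, which may be technical in part. The script was tested on simulated data before use.

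The 10 genes and the lists were chosen with earlier results of these data known. Named genes are the 10, the other family genes, up to 4 called genes per direction with the smallest p in each other list, any gene of those lists that did not pass, sort and genotype genes, and the 3 nearest profiles. Genes overlapping a member, ERBB2, RRAS, MICAL2, MICAL3, ARHGEF11 and single markers are named outside that rule. GENCODE 29 (GRCh38) supplied positions and the length and GC content of transcripts, with 14994 genes matched (99.8%). Promoter sequences came from RefSeq (GRCh38.p14), whose starts can lie away from the GENCODE gene positions. The PLXNA1 window shown lies before its GENCODE gene and the PLXNB2 window inside it. That of SEMA3B falls between the GENCODE positions of SEMA3F and SEMA3B. NRP1, SEMA3A and DPYSL2 have no promoter window here. Alternatives were the replicate block, other pseudocounts, filters and scalings, limma without the trend, edgeR 4.0.16, DESeq2 1.42.0, a length and GC correction (mgcv 1.9.3) and leaving out each library.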

Additional observations from a re-analysis of the deposited data

How the results depend on the processing

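Over all genes 6257 passed, with a range of 4101 to 6395 when 1 library was left out (4101 without replicate 1 of CD104low) and 5887 to 7876 under the other settings except limma without the trend (5476). No scaling moved the median of all genes by over 0.1. Other family genes higher in CD104high numbered 10, ranged over 5 to 10 with 1 library left out, and were 6 with the length and GC correction. Those lower numbered 1, ranged over 0 to 2, and were 2 with that correction, 0 in limma without the trend, 2 with quantile normalization and 3 with the replicate block. Co-receptor and VEGF genes lower numbered 0, ranged over 0 to 1, and were 1 in DESeq2, 2 with the correction and 1 with the replicate block. Genes of that list higher in CD104high numbered 5 under every setting run. With the correction these were not the same 5, as ERBB2 lost its call and ITGB1 gained one. Plexin signalling genes higher numbered 9, ranged over 5 to 10, and were 14 with the replicate block and 7 with the length and GC correction. Those lower numbered 5, ranged over 3 to 5, and were 3 in limma without the trend. The causes were not tested.

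Same-numbered samples of the populations deviated from their group means with correlations of 0.08, 0.36 and 0.32 across genes. The replicate numbers were not taken as pairs, since the first was under 0.1, although every sample correlated best with its own number. The fit with the replicate block called 7876 genes, against 6257 without it, and added SEMA3G (adjusted p = 0.000255), SEMA7A (0.00395), SEMA3E (0.0204), PLXNA4 (0.0243) and VEGFA (0.000834). From the plexin signalling list it added LIMK1 (0.00487), FARP1 (0.00692), ROCK2 (0.0155), CDK5 (0.0161) and RHOD (0.034), all as rises. SEMA5A kept its call in that limma fit (adjusted p = 4.57e-06). For the 10 described genes, 8 of their values moved by more than 1 SD between replicates, 6 of them with the length and GC correction. SEMA3A was 0.58 and PLXNB2 0.69 with quantile normalization. For NRP2 and SEMA3F, 3 libraries per group limit what can be resolved, and SEMA3A rests on scaled read numbers of 52.8 to 136.9 per library. The overlapping 2 genes differed by replicate number: NRP2 was higher in CD104high for each number, and SEMA3F went in both directions.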

Other observations

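In SEMA5A, L1CAM, PLXNA4 and SEMA3D replicate 2 was lowest and replicate 3 highest in CD104high and in CD104low. In SEMA3G, PLXNB1 and PTK7 replicate 3 was lowest and replicate 2 highest in each. SEMA3G read 506.2, 556.0 and 239.3 in CD104high, against 207.2, 316.5 and 148.2 in CD104low. These genes were picked after their values were seen, and no batch is named in the labels.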
